A study of Caenorhabditis elegans with 2 samples.

Results

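The cytosolic ribosomal protein genes of Caenorhabditis elegans were examined in peak lists from ChIP-seq, the sequencing of DNA that is precipitated with a chromatin protein. The protein was CEH-9, a homeobox transcription factor. Their members are the protein-coding genes whose name is rpl- or rps- followed by a number in the Ensembl annotation of the genome build WBcel235. There are 78 such genes, 47 named rpl- and 31 named rps-, among 19973 protein-coding genes. Ribosomal proteins that carry other names, such as the acidic stalk proteins and those made as ubiquitin fusions under the names ubl-1 and ubq-2, are outside this choice. The embryos were of strain OP202, with the genotype unc-119(ed3) III; wgIs202, where wgIs202 is an integrated transgene for CEH-9 carrying a C-terminal GFP-FLAG tag. Late embryos of both sexes were collected whole, 4.75 h after synchronization by egg bleaching, and sonicated chromatin was precipitated with an antibody against GFP. There is 1 group, of 2 biological replicates, and the tag and the unc-119 allele are common to both. The sources used here do not give the level of the transgene relative to the native gene or the cell types that carry it, and no peak could be placed in a cell type.

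The ribosome is built of a small and a large subunit. The small subunit decodes the messenger RNA, and the large subunit joins the amino acids. Each subunit needs most of its proteins in equal numbers, and ribosomal protein genes are highly transcribed in growing tissues. Many of them host, within their introns, genes for small nucleolar RNAs (snoRNAs), which guide the modification of ribosomal RNA. A homeobox factor such as CEH-9 binds DNA through a homeodomain, whose usual target core is TAAT.

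Every peak in the files has a summit, the position where its signal is highest, and a signal value given by the authors. Each relaxed list, 1 per replicate and 1 pooled over both, holds 30000 peaks, a fixed length, so presence in a list says little by itself. Summits were therefore ranked by signal within a list, rank 1 being the strongest. In the pooled list the signal was 416 at rank 1, 68.4 at rank 300, 45 at rank 3000 and 22.5 at the end. The same points were 166, 27.5, 18.7 and 9.33 in replicate 1 and 269, 52, 34.2 and 16.5 in replicate 2. Signals of different lists are on different scales. The list of reproducible peaks, which passed an irreproducible discovery rate (IDR) threshold, holds 207 peaks, the weakest at a signal of 73.4. A summit was counted for a gene when it lay within 1 kb of any transcription start site (TSS) of that gene. Negative distances lie upstream of the TSS.

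The windows of 4 small subunit genes are printed as examples of DNA at strong summits near members, and do not stand for all of these. They were chosen by rank among the windows that could be shown, and summits of other members, described further on, ranked above or between them. Each window is from the ce11 genome (RefSeq copy of the same assembly), runs 75 bp to each side of the best pooled summit and is written 5′ to 3′ on the strand of the ribosomal protein gene. Capitals mark the searched homeodomain words, which are TAATTA or TAATTG, or else TAATGA or TAATGG, and the word CACGTG, read on either strand. They also mark AAAAGG, a word that was noticed in these windows after the values were seen. The rps-24 window is at chrIV:385208-385358 on the plus strand, the rps-28 window at chrIV:1659099-1659249 on the plus strand, the rps-22 window at chrIII:1949462-1949612 on the plus strand and the rps-13 window at chrIII:6375712-6375862 on the minus strand.
rps-24: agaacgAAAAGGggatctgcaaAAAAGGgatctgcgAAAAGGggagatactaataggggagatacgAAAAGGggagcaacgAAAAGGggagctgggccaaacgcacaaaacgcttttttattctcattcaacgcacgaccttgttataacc
rps-28: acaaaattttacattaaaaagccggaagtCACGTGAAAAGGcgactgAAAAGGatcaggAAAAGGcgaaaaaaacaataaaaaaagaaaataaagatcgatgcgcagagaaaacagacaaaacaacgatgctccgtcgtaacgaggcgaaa
rps-22: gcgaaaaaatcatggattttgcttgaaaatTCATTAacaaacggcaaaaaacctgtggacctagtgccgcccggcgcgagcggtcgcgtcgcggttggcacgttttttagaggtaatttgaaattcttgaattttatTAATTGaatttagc
rps-13: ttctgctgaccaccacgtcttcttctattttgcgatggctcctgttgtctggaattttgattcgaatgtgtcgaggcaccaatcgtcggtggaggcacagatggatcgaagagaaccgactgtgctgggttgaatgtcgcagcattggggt
Of these, only the rps-22 window held any of the 4 homeodomain words, TAATGA (as its reverse complement) and TAATTG. The rps-24 window held AAAAGG 5 times and the rps-28 window 3 times. The windows of rps-22 and rps-13 held it 0 times. A match describes the letters in a window and is not a binding site.

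Ribosomal protein genes had pooled summits more often than protein-coding genes as a whole, but no reproducible one. A pooled summit lay within 1 kb of 67 of the 78 members (85.9%, exact 95% interval 76.2 to 92.7%), against 50.5% of all protein-coding genes. In replicate 1 the count was 70 (89.7%), against 51.9% of all genes. In replicate 2 it was 64 (82.1%), against 50.2% of all genes. Both replicate lists had a summit near 59 members (75.6%), against 33.9% of all genes. In all 3 lists 58 members had one, a count given without a share of all genes. No member lay within 1 kb of a reproducible peak (0 of 78, exact interval 0 to 4.62%), where 0.626% of all genes did, a share at which 78 genes are too few to show a difference. The reproducible summits nearest to a member lay 4565 bp from rps-24 and 4956 bp from rps-1. The intervals cover the counting of genes only, and no test was run over the members as a list.

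Among the 3000 strongest summits the members' share was higher in each list, with large differences between lists. In the pooled list 19 members had such a summit (24.4%, exact interval 15.3 to 35.4%), against 7.98% of all genes. Replicate 1 gave 13 members (16.7%, 9.18 to 26.8%), against 7.94% of all genes, and replicate 2 gave 21 (26.9%, 17.5 to 38.2%), against 8.06%. Only 3 members had one in both replicate lists (3.85%, 0.8 to 10.8%), namely rpl-15, rps-24 and rps-28, against 2.24% of all genes. The interval holds the share of all genes. Of these 3, rps-24 and rps-28 had it at the same pooled summit (2.56% of members, against 1.21% of all genes). The summits of rpl-15 lay apart, at -879 bp from its TSS in replicate 1 and -340 bp in replicate 2.

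Among the 300 strongest summits members were too few to show an excess, while further down the pooled list their share was higher. Within the 300 strongest pooled summits there was 1 member (1.28%, exact interval 0.0325 to 6.94%), rps-18 at rank 296, against 0.931% of all genes. In replicate 1 it was 2 members (2.56%, against 0.861%), and in replicate 2 it was 0 (against 0.911%). By rank 700 of the pooled list the share had reached 11.5% of members, against 2.14% of all genes. Rank 700 was not a planned cut, and by rank 1000 the shares were 11.5% and 3%. Among these members, rpl-24.1 and rps-10 count for the same summit. The median rank of the best pooled summit, over genes that had one, was 7318 for members and 11421 for all genes. In replicate 1 these medians were 9905 for members and 11757 for all genes, and in replicate 2 they were 7583 for members and 11596 for all genes. At rank 3000 the nearest members inside were rpl-18 at 2621 (signal 46.3) and rpl-2 at 2820 (45.6), and the nearest outside were rpl-28 at 3194 (44.5) and rps-11 at 3481 (43.8).

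**Figure D1:**
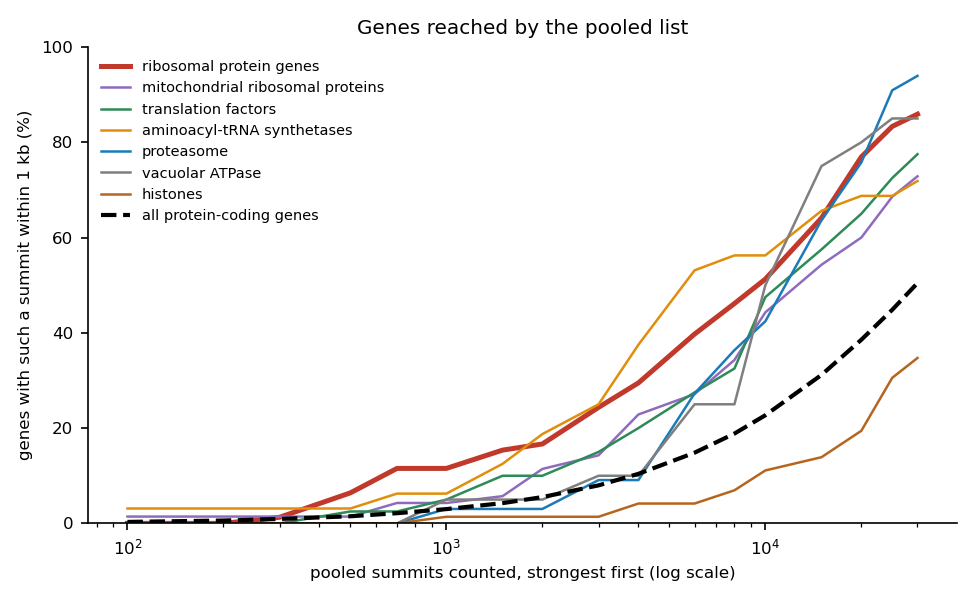
Share of genes (%, vertical axis) with a pooled summit within 1 kb as more summits are counted from the strongest down (horizontal axis, log scale), for the 78 ribosomal protein genes (thick red), 6 other gene lists and all protein-coding genes (dashed). The ribosomal protein curve lies at 24.4% at rank 3000 and ends at 85.9%, above the curve of all protein-coding genes, which passes 7.98% and ends at 50.5%.

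Other housekeeping gene lists, chosen by name, held part of this pattern. Nuclear genes for mitochondrial ribosomal proteins (mrpl- and mrps-, 70 genes) had a pooled summit in 72.9% and one among the 3000 strongest in 14.3%. Translation factors (40 genes) had 77.5% and 15%. Aminoacyl-tRNA synthetases (32 genes), which load transfer RNAs with amino acids, had 71.9% and 25%. Their strong share was thus close to the 24.4% of ribosomal protein genes. Proteasome subunits (33 genes) had 93.9% and 9.09%, and vacuolar ATPase subunits (20 genes) 85% and 10%. Histone genes (72) had 34.7% and 1.39%. The order depended on the replicate, since mitochondrial ribosomal protein genes were at 22.9% in replicate 1 and 11.4% in replicate 2 for the 3000 strongest, while ribosomal protein genes were at 16.7% and 26.9%.

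Ribosomal protein genes are short and closely packed. Their median length was 753.5 bp, against 2027 bp for all protein-coding genes, and 57 of 78 (73.1%) had the start of another protein-coding gene within 1 kb, against 25.5% of all genes. With no other start within 1 kb, 18 of 21 members had a pooled summit (85.7%), against 47.7% of all such genes, and 2 had one among the 3000 strongest (9.52%), against 6.93%. With 1 other gene starting nearby, 35 of 40 members had a pooled summit (87.5%), against 57.9%, and 13 had a strong one (32.5%), against 11.1%. With 2 or more, 14 of 17 members had a pooled summit (82.4%), against 63.4%, and 4 had a strong one (23.5%), against 10.4%. The members' share with any summit was thus about as high without close neighbours, while strong summits were near 17 members with a close neighbour and 2 without. Counting a summit only for the gene whose TSS is nearest left 9 members in the 3000 strongest (11.5%), against 6.68% of all genes. Both this count and that of the 2 of 21 members without a close neighbour are too small to show a difference. The part that close neighbours have in the result was not tested further.

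Among members with a pooled summit, small subunit genes had the better median rank, while large subunit genes more often had a pooled summit. A pooled summit was near 44 of 47 rpl- genes (93.6%, exact interval 82.5 to 98.7%) and 23 of 31 rps- genes (74.2%, 55.4 to 88.1%), intervals that overlap. In replicate 1 the shares were 89.4% of rpl- genes and 90.3% of rps- genes, and in replicate 2 they were 87.2% and 74.2%. Among the 3000 strongest pooled summits there were 10 rpl- genes (21.3%) and 9 rps- genes (29%). In replicate 1 there were 7 (14.9%) and 6 (19.4%), and in replicate 2 there were 10 (21.3%) and 11 (35.5%). The median best pooled rank, over genes that had a summit, was 9754.5 for rpl- genes and 4188 for rps- genes. With all genes of each list counted, a summit up to rank 6000 was near 40.4% of rpl- and 38.7% of rps- genes. Up to rank 15000 it was 63.8% and 64.5%. Of the 8 members with the best pooled ranks, 7 were rps- genes, a cut that was not planned. Next came rpl-29 at 674, and rps-10 shares its summit with rpl-24.1.

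Several small subunit genes near the top carried a summit nearer to the start of a neighbour. The best summit of rps-18, a protein of the small subunit's head, ranked 296 in the pooled list (signal 68.6), at -594 bp from its TSS, and was matched within 100 bp at rank 4036 in replicate 1 and rank 958 in replicate 2. It lay in an untranslated exon, 179 bp from the start of sec-61.A, which encodes the channel subunit of the protein translocon. The summit of rps-6, the small subunit protein phosphorylated by S6 kinase in mammals, had rank 547 in the pooled list, with 243 in replicate 1 and 3059 in replicate 2. It was at -788 bp in a coding exon, 257 bp from the start of the ubiquitin protease gene usp-3. For rps-22, the counterpart of human RPS15A, the best pooled summit ranked 632 at -998 bp, just inside the 1 kb limit. Replicate 2 had it at rank 457, and the nearest summit of replicate 1 was 648 bp away. The summit of rps-13 ranked 1200 in the pooled list, with 2982 in replicate 1 and 4015 in replicate 2, at -790 bp in a coding exon, and the nearest start was that of nfx-1. Over the 67 members with a pooled summit, the best one was nearest to the member's own start for 38, and for 9 of the 19 in the 3000 strongest. No such count over all genes is given here, so these counts cannot be called high or low.

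Both rps-24 and rps-28 had strong summits at matching places in the replicates, in DNA between genes and nearer to their own start than to any other. The summit of rps-24, whose human counterpart is mutated in Diamond-Blackfan anaemia, ranked 325 in the pooled list (signal 67.4), with 644 in replicate 1 and 998 in replicate 2, at -604 bp. Another summit of rps-24, at -336 bp, ranked 1546 in the pooled list but 248 in replicate 1 and 22623 in replicate 2. The summit of rps-28 ranked 345 in the pooled list (signal 66.4), with 728 in replicate 1 and 800 in replicate 2, at -517 bp. Both rps-24 windows held words of 36 bases that occur more than once in the genome, 26.7% of the words at the first summit and 34.5% at the second, where 36 is an assumed read length. No other window near a member held such a word, so these 2 of 106 windows (1.89%) compare with 9.44% of windows near all protein-coding genes and 45.9% of the reproducible ones. How repeated sequence bears on the rank of rps-24 was not tested.

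**Figure D2:**
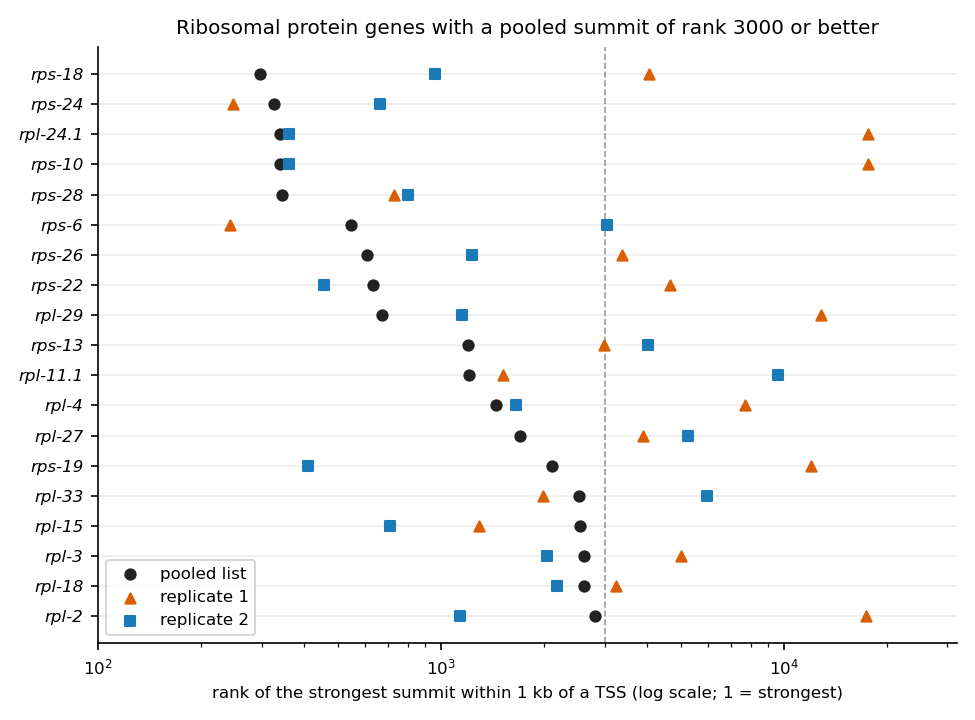
Rank of the strongest summit within 1 kb of a TSS (horizontal axis, log scale, strongest at the left) in the pooled list, replicate 1 and replicate 2 for the 19 ribosomal protein genes with a pooled rank up to 3000 (dashed line). Only rps-24, rps-28 and rpl-15 have all 3 symbols left of the line, while rpl-24.1 and rps-10 share ranks of 339 in the pooled list, with 17661 in replicate 1 and 361 in replicate 2.

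A single summit served a pair of genes, rpl-24.1 for a large subunit protein and rps-10 for a small subunit protein, which are divergent neighbours. It ranked 339 in the pooled list (signal 66.8) and 361 in replicate 2, but the matching summit of replicate 1 ranked 27159. It lay in a coding exon of rps-10, 346 bp inside that gene and at -956 bp from the TSS of rpl-24.1. For rps-26, another gene whose human counterpart is linked to Diamond-Blackfan anaemia, the best summit ranked 608 in the pooled list, with 3375 in replicate 1 and 1235 in replicate 2. It was at -452 bp, 5 bp from the start of tmem-107 and 66 bp from the snoRNA gene F39B2.14 on the opposite strand. Each of these summits was seen in both replicates, with ranks that differed widely for the first.

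The strongest large subunit summits after that pair lay within the genes. The summit of rpl-29 ranked 674 in the pooled list (signal 58.5) and 1153 in replicate 2 but 12836 in replicate 1, at 18 bp from one of its start sites. For rpl-11.1, which encodes the protein that binds 5S ribosomal RNA and, in mammals, the p53 regulator MDM2, the ranks were 1209 in the pooled list, with 1516 in replicate 1 and 9648 in replicate 2, at 89 bp past the TSS. For rpl-4, whose protein lines the exit tunnel for the growing chain, they were 1446 in the pooled list, with 14395 in replicate 1 and 1651 in replicate 2, at 967 bp past the TSS. All 3 summits lay in coding exons, and the replicates ranked each very differently.

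**Figure D3:**
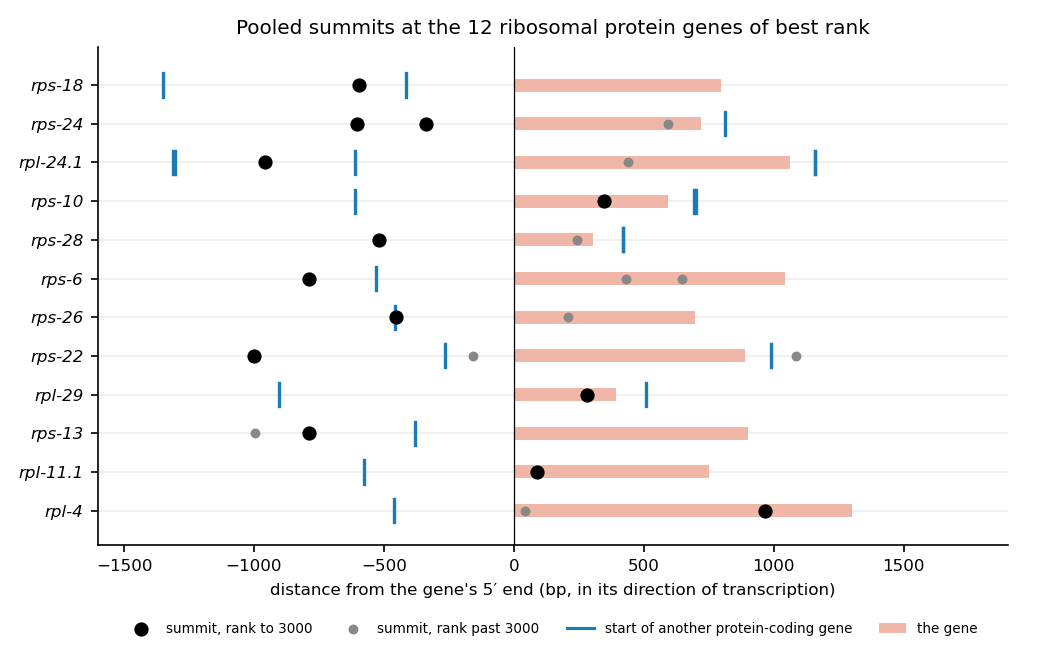
Pooled summits (dots, large and black up to rank 3000, small and grey past it) at the 12 ribosomal protein genes of best pooled rank, by distance from the gene's 5′ end in bp along its direction of transcription (horizontal axis), with the gene as a bar and starts of other protein-coding genes as blue ticks. Most large dots lie upstream, among them rps-24 at -604, while those of rps-10, rpl-29, rpl-11.1 and rpl-4 lie within the gene; distances in the text are to the nearest start site, which for rpl-29 is another one.

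Below these 12, the members up to rank 3000 were rpl-27 at 1704, rps-19 at 2104, rpl-33 at 2528, rpl-15 at 2541, rpl-3 at 2616, rpl-18 at 2621 and rpl-2 at 2820. The protein of rpl-3 lies at the peptidyl transferase centre, and human RPS19 is the gene most often mutated in Diamond-Blackfan anaemia. The summit at rpl-27 was 20 bp from the start of egl-30, a G protein alpha subunit gene, that at rps-19 102 bp from hsr-9, and that at rpl-33 157 bp from farl-11. The pooled summit of rpl-15 was nearest to its own start, at -328 bp, with rank 712 in replicate 2 and no match within 100 bp in replicate 1.

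At the weak end of the list, rps-30, made as a fusion with a ubiquitin-like protein, had a best pooled rank of 24849 at a summit shared with its neighbour rpl-39. The genes rpl-14 and rpl-32 ranked 26242 and 26250. No summit of any list was near rpl-10, rpl-36.A or rps-3, whose protein lies at the messenger RNA entry of the small subunit. A further 8 members, rpl-7A, rps-0, rps-1, rps-5, rps-7, rps-16, rps-17 and rps-29, lacked a pooled summit but had one in a replicate list, at ranks of 9085 or weaker. Among paralogs, the pooled best rank was 1209 for rpl-11.1 and 5360 for rpl-11.2, it was 339 for rpl-24.1 and 19785 for rpl-24.2, and it was 15098 for rpl-25.1 and 19759 for rpl-25.2. The paralogs rpl-41.1 and rpl-41.2, which lie next to each other, shared a summit at rank 23343.

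Single replicates gave strong summits that the pooled list did not. In replicate 1 a summit of rps-20 ranked 335, while its best pooled rank was 18962 and replicate 2 had rank 26803 elsewhere. Likewise rps-9 ranked 766 in replicate 1, 10665 in the pooled list and 29202 in replicate 2. These genes were chosen after their values were seen.

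The 67 members with a pooled summit formed 111 pairs of gene and summit, 1.42 per member over all 78, against 0.795 per gene over all genes. They came from 106 distinct summits, of which 5 were near 2 members. A summit in both replicate lists within 100 bp was found for 32 of the 106 (30.2%, exact interval 21.7 to 39.9%), against 20.9% of the 13556 pooled summits near any protein-coding gene. For 25 a match was found in replicate 1 only, for 35 in replicate 2 only and for 14 in neither. Up to rank 3000, 15 of 19 summits near members were in both lists (78.9%, 54.4 to 93.9%), against 63% of 1436 near all genes, and the other 4 were in replicate 2 only. Past rank 3000 it was 17 of 87 (19.5%), against 15.9%. Among the 32 summits in both lists, the ranks of the replicates were nearly unrelated, with a Spearman rho of 0.0949, against 0.212 over 2830 summits near all genes. These points share their libraries and were picked for being in the pooled list and in both replicate lists. That choice bears on how the ranks relate, so the rho values describe such summits only. They do not measure how far the replicates agree.

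**Figure D4:**
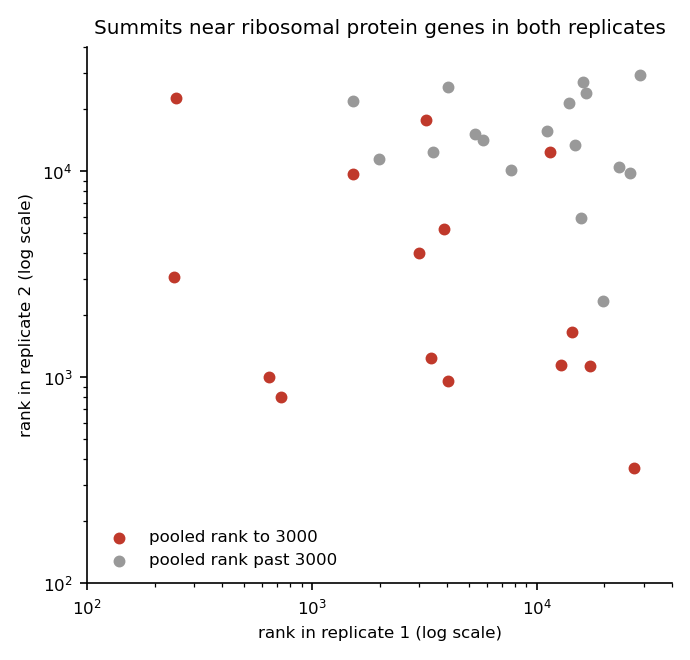
Rank in replicate 1 (horizontal axis) against rank in replicate 2 (vertical axis), both on log scales, for the 32 pooled summits near ribosomal protein genes that have a match within 100 bp in each replicate. Red points have a pooled rank up to 3000 and grey points a weaker one; the pair nearest to the lower left corner is rps-24 (644 and 998) and rps-28 (728 and 800), and points are spread with no common trend.

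Summits near members were spread over the whole window around the start sites. Of the 111 pairs, 57 had the summit upstream (51.4%, exact interval 41.7 to 61%), against 48.4% over all protein-coding genes. The median position was -48 bp for members and 26 bp for all genes. Within 200 bp of the TSS lay 20.7% of members' pairs and 24.1% of all genes' pairs in the pooled list. The order was the other way in the replicates, with 26.3% of members' pairs and 23.8% of all genes' pairs in replicate 1, and 25.2% and 23.7% in replicate 2. In the pooled list 43.2% of members' pairs and 45.2% of all genes' pairs lay over 500 bp away. Per 100 genes, the bin with the most summits at members in the pooled list was 200 to 400 bp downstream, with 23.1 at members and 9.26 at all genes. In the replicates it was the bin from 0 to 200 bp, with 24.4 at members and 9.91 at all genes in replicate 1, and 20.5 and 9.97 in replicate 2. That bin was also the fullest for all genes in the pooled list, with 17.9 at members and 10.2 at all genes. In the pooled list the bins from 800 to 600 bp and from 400 to 200 bp upstream each held 19.2 at members, against 7.44 and 7.63 at all genes. The bin from 600 to 800 bp downstream held 6.41 at members and 7.14 at all genes.

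**Figure D5:**
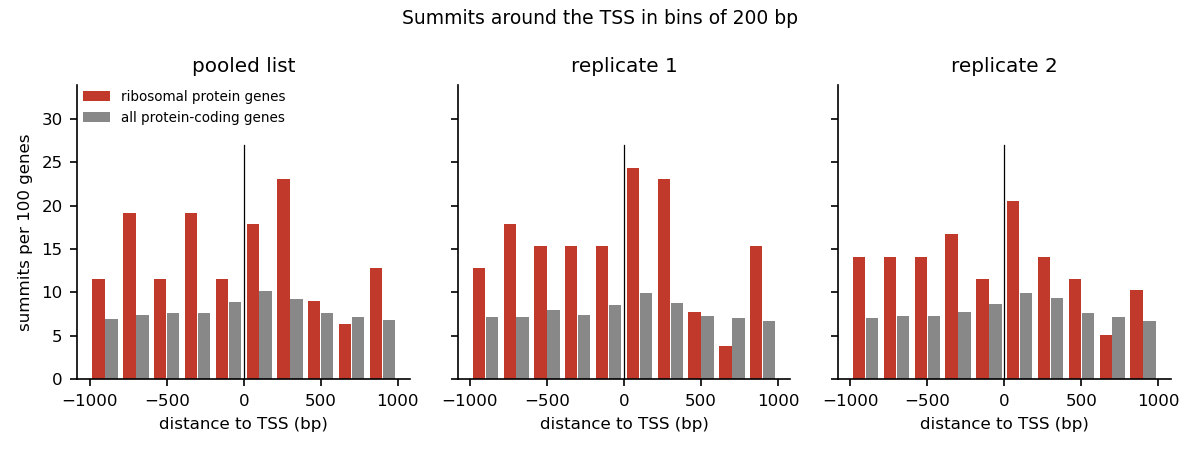
Summits per 100 genes (vertical axis) in bins of 200 bp by distance from the TSS in bp (horizontal axis, negative is upstream) for ribosomal protein genes (red) and all protein-coding genes (grey), in the pooled list and each replicate. Members exceed all genes in most bins of each panel, with 23.1 against 9.26 in the pooled bin at 200 to 400 bp, but not at 600 to 800 bp (6.41 against 7.14 in the pooled list).

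By annotation, 49 of the 106 summits near members lay in coding exons (46.2%), 38 between genes (35.8%), 13 in introns (12.3%) and 6 in untranslated exons (5.66%). Near all protein-coding genes these shares were 35% in coding exons, 27.1% between genes, 31.6% in introns and 6.34% in untranslated exons. Members are shorter than genes as a whole, and the make-up of the DNA within 1 kb of the starts was not counted. These differences therefore do not show a preference in where summits lie. The nearest start was that of a member for 67 of the 106 (63.2%), a share with no like value for all genes beside it. A gene for a transfer RNA, a snoRNA or a small nuclear RNA lay within 100 bp of 6 of the 106 (5.66%), against 1.31% of summits near all protein-coding genes. Up to rank 3000 it was 1 of 19 (5.26%), against 6.62%.

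The snoRNA genes inside ribosomal protein genes had none of the strong peaks. There were 19 of them in introns of 13 members, all on the strand of the host, and 3 more members (rpl-12, rps-10 and rps-26) had a snoRNA gene within 1 kb of a TSS. A pooled summit lay within 100 bp of 4 of the 19 (21.1%), and 0 were among the 3000 strongest or reproducible. Of all 346 annotated snoRNA genes, 35.3% had a pooled summit within 100 bp, 14.7% a summit among the 3000 strongest and 11% a reproducible one. At the shares for strong and for reproducible summits, 19 genes are too few to show a difference. In replicate 1 the count was 7 of 19 (36.8%), against 26.6% of all snoRNA genes, and in replicate 2 it was 1 of 19 (5.26%), against 31.2%. The 13 host genes had a pooled summit in 11 cases (84.6%), and 5 had one among the 3000 strongest (38.5%, exact interval 13.9 to 68.4%). Of the 62 members with no snoRNA gene in an intron or within 1 kb, 53 had a pooled summit (85.5%) and 12 a strong one (19.4%, 10.4 to 31.4%).

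The 4 host genes with a pooled summit within 100 bp of their snoRNA gene were rpl-6, rpl-26, rps-12 and rps-4. The summit was 52 bp from R151.12 in rpl-6 (rank 4379) and 68 bp from F28C6.11 in rpl-26 (rank 4794). It was 65 bp from F54E7.10 in rps-12 (rank 17413) and inside Y43B11AR.7 in rps-4 (rank 13701). None of these summits was matched within 100 bp in both replicates. That of rpl-6 was in replicate 2 only and that of rps-4 in replicate 1 only. Those of rpl-26 and rps-12 were in neither. The sequences of the better ranked pair of these snoRNA genes are shown to let their structure be seen beside their rank. They are from the ce11 genome, R151.12 at chrIII:7209019-7209149 and F28C6.11 at chrII:8602971-8603103, both on the plus strand, and capitals mark the last ACA, the box that ends snoRNAs of the H/ACA class.
R151.12: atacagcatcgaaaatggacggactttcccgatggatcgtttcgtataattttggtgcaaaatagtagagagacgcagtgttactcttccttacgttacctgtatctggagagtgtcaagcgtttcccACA
F28C6.11: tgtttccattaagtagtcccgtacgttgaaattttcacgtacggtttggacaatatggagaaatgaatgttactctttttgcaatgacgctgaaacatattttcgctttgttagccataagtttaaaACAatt
The ACA stood 0 bases from the annotated 3′ end of R151.12 and 3 bases from that of F28C6.11.

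In the letters around the summits, ribosomal protein genes differed little from the rest of the pooled list. Homeodomain words were searched on both strands of these windows. They share their first 4 letters, so no position can start more than 1 of them. TAATTA was in 5.66% of the 106 windows near members and 5.14% of all 30000 pooled windows. TAATTG was in 9.43% near members and 9.27% of all windows, and TAATGA was in 4.72% near members and 6.52% of all. TAATGG was in 3.77% near members and 4.52% of all. Of the parts of the B box of transfer RNA genes, GGTTCG was in 1 window near members (0.943%, exact interval 0.0239 to 5.14%), against 3.62% of all. GTTCGA was in 4 (3.77%, 1.04 to 9.38%), against 5.86% of all. Both intervals hold the share of all windows, and these words overlap each other. GAGAGA was in 11.3% near members and 9.91% of all windows, GCGCGC in 1.89% and 2.01%, CACGTG in 3.77% and 3.32%, and TATAAA in 9.43% and 12%. The median GC content was 42.4% near members and 40.4% over all windows, and up to rank 3000 it was 47.7% near members and 45% over all.

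Windows with 3 or more copies of AAAAGG, like those printed for rps-24 and rps-28, were rare in the list, while single copies were not. At least 3 copies were in 3 of the 106 windows near members (2.83%), against 0.203% of all pooled windows. Up to rank 3000 it was 3 of 19 windows (15.8%), against 0.333% of all. The 3 windows were both rps-24 windows up to rank 3000, with 5 and 4 copies, and the rps-28 window with 3. At least 1 copy was in 9.43% of windows near members and 12.6% of all, and up to rank 3000 in 6 of 19 (31.6%), against 12.7% of all. The word was picked from these windows, so the shares are descriptions of them.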

How the data were processed

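The members and the comparison lists were chosen with earlier results of these data known. Per the labels, a control went into the relaxed peak list of each replicate and into the pooled one, and the reproducible peaks were taken from these. The sources used here do not name the aligner, the peak caller or the IDR threshold. The control was not analysed here. For each peak the files deposited by the authors hold a signal and a −log10 q-value, without headers, and the score column is 0. The signal served only to order the peaks of a list, and the −log10 q as an alternative order. No read counts are given, so depth is unknown, and intervals (exact Clopper-Pearson) cover the counting of genes or summits only.

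Coordinates are ce11, and 0 peaks passed a chromosome end of WBcel235. The lists in ce10 were not used, since the genome at hand is ce11. Genes and start sites came from Ensembl release 115, and sequences from the RefSeq genome of that assembly. Replicates matched where summits lay within 100 bp. With 1 group there was no comparison between samples. The counting was checked on simulated data. Genes named by rule were the 12 of best pooled rank, snoRNA hosts with a pooled summit within 100 bp of the snoRNA gene, members in the 3000 strongest of both replicates, the 3 weakest, and those with no summit. Other genes were named after their values were seen. Windows were printed for the 4 best ranked members, leaving out those on chromosome I and those whose window reaches an untranslated exon. The plan left out chromosome I only, by which rps-18 would have been printed and rps-13 not. Scripts ran in Python 3.11.15 with scipy 1.17.1 and numpy 2.4.6, and figures were drawn with matplotlib 3.10.9.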

Additional observations from a re-analysis of the deposited data

How the results depend on the processing

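No paired analysis was possible because the series has 1 group. Of 31 alternatives, 19 were classed as close to the main value, though not all were equal to it, and 12 as moved. In all of them the members' value stayed on the same side of that of all genes. Classed as close were 13 members in the 3000 strongest with replicate 1 alone (16.7%, against 7.94% of all genes), in place of 19. So were 26 within 2 kb (33.3%, against 12.8%). The 19 members with a pooled summit in the 3000 strongest became 10 within 500 bp of a TSS (12.8%, against 4.66% of all genes), 9 when a summit counted only for the nearest TSS (11.5%, against 6.68%), 12 with the 1500 strongest (15.4%, against 4.25%) and 31 with the 6000 strongest (39.7%, against 14.8%). It became 12 among members without a snoRNA gene in an intron or within 1 kb (19.4%, against 7.98%), an alternative chosen after seeing the data. The 9 members with nearest TSS only are too few to show a difference from all genes. The 3 members in both replicates became 14 with the 6000 strongest (17.9%, against 5.28%). The median best rank of 7318 became 11178.5 within 500 bp (all genes 12901), 4794 within 2 kb (9828) and 10623.5 with nearest TSS only (12098), and ranged from 7583 to 9905 with each replicate's list alone. Summits in both replicates were 17% with a match of 50 bp (11.9% near all genes) and 49.1% with 200 bp (32.3%), in place of 30.2%. The cause of these shifts was not tested, apart from those that fewer or more summits bring by construction. The count of members with any pooled summit lay between 50 with nearest TSS only (64.1%, against 45.5% of all genes) and 75 within 2 kb (96.2%, against 67.5%). These counts were classed as close to the main value of 67. Depth is unknown, and no untagged strain was analysed here. Of the pooled summits near members up to rank 3000, 15 of 19 were matched within 100 bp in both replicates (78.9%, against 63% near all genes). Ranks up to 3000 in both replicates at the same pooled summit were found for 2 members (2.56%, against 1.21% of all genes).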
